A study of Mus musculus with 32 samples.

Results

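The genes described here are the 38 enzymes that handle methionine, choline and the one-carbon units that link both, the nutrients that are missing from the methionine- and choline-deficient (MCD) diet. They were taken by name, by a rule that uses no measured value, although earlier results of these data were known when they were chosen. All 38 had probes on the array, with 65 of its 55681 non-control probes. Of these genes, 37 entered the tests among 21031 genes in all. Sardh, sarcosine dehydrogenase, did not, because the spot of its only probe was marked as an outlier on 1 array. RNA came from livers of male C57/BL6 mice that were 8 weeks old at the start and were fed chow or the MCD diet for 3 weeks, with 4 livers, each on 1 array, in each of 8 groups. The groups before partial hepatectomy (PH) were C (chow, vehicle), MCD (MCD diet, vehicle), C+Fc-GLP-1 (chow, drug) and M+Fc-GLP-1 (MCD diet, drug). The drug, a long-acting agonist of the GLP-1 receptor, was given for the final 2 weeks of feeding. The same 4 groups were sampled again 2 weeks after removal of 70% of the liver, on the same diet and treatment, so these livers came from mice that had survived surgery. By the study's text the tissue before PH was taken at that surgery, and the labels do not tell whether a mouse gave tissue at both times. The study's methods give 10 nmol/kg of Fc-GLP-1 every 2 days, while some sample labels name an agent that acts on both the glucagon and the GLP-1 receptor, at a daily 4.4 mg/kg. The groups are named here after the study.

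In the methionine cycle, methionine adenosyltransferases turn methionine into S-adenosylmethionine, the methyl donor of the cell, which after giving up its methyl group becomes S-adenosylhomocysteine and then homocysteine. Homocysteine is methylated back to methionine with folate or with betaine, which is made from choline, or it is passed through transsulfuration to cysteine and taurine. The carbon units of folate come largely from serine and glycine, in the cytosol and in mitochondria. Choline is also built into phosphatidylcholine by the CDP-choline route, and the liver can in addition make phosphatidylcholine by methylating phosphatidylethanolamine. Mice fed a diet without both nutrients develop a fatty and inflamed liver.

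Values are given as log2 of the scanner signal minus the 75th percentile of the same array, so that 0 is the level of a bright probe and a difference of 1 is a doubling. They are compared between arrays for 1 probe, never between probes. Differences between groups are given on this scale with the standard error (SE) of the fit, and a gene was said to rise or fall when its p-value, adjusted over all 21031 genes, was under 0.05. On the dimmest array 36.3% of probes stood well above background, and on the brightest 69.2%. The 10 hepatocyte markers examined were well above background on all 32 arrays. Before PH, C and MCD livers shared a slide, as did the livers of both drug groups at each time. After PH, the C and MCD livers were on a slide each, read on another scanner. In that comparison diet and slide cannot be told apart, and the same holds for every comparison of Fc-GLP-1 with vehicle and of times. In whole liver, fewer cells of a type and less RNA per cell cannot be told apart.

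The diet moved these genes in both directions. Before PH, 15 of the 37 members changed between MCD and C, 7 of them higher and 8 lower, beside 26.5% of all genes (10.9% higher and 15.5% lower). In mice given Fc-GLP-1, 6 members changed between M+Fc-GLP-1 and C+Fc-GLP-1, 4 higher and 2 lower, beside 10.3% of all genes (5.33% higher and 5.01% lower). After PH, 15 members changed between MCD and C, 5 higher and 10 lower, beside 12.1% of all genes (6.03% higher and 6.08% lower). Between M+Fc-GLP-1 and C+Fc-GLP-1 after PH, 7 members changed, 5 higher and 2 lower, beside 12.8% of all genes (6.18% higher and 6.61% lower). The median differences over the 37 members in these 4 comparisons were -0.01, -0.15, -0.27 and -0.20, against -0.13, 0.04, -0.03 and -0.01 over all genes. In all, 21 members changed in at least 1 of the 4 diet comparisons and none changed in opposite directions among them, while 16 did not pass the test in any. Mat2a, Mtrr, Mthfd1l and Psat1 rose in all 4 diet comparisons and Aldh1l2 in 3, and Csad, Aldh7a1 and Chka fell in 3. Counts over several comparisons were not made for all genes. Whether these counts of members are unusual therefore cannot be told. The Mtrr probe met the brightness condition for testing only through MCD-fed groups, since no chow group showed it well above background on all 4 arrays. Its rises are therefore not independent of that condition. With arrays centred on their median instead, the median over all genes between MCD and C before PH moved from -0.13 to 0.24, and 10 members were called higher and 3 lower, beside 20% and 6.02% of all genes. The balance of rises and falls before PH thus depends on the scale for the members as for all genes.

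**Figure D1:**
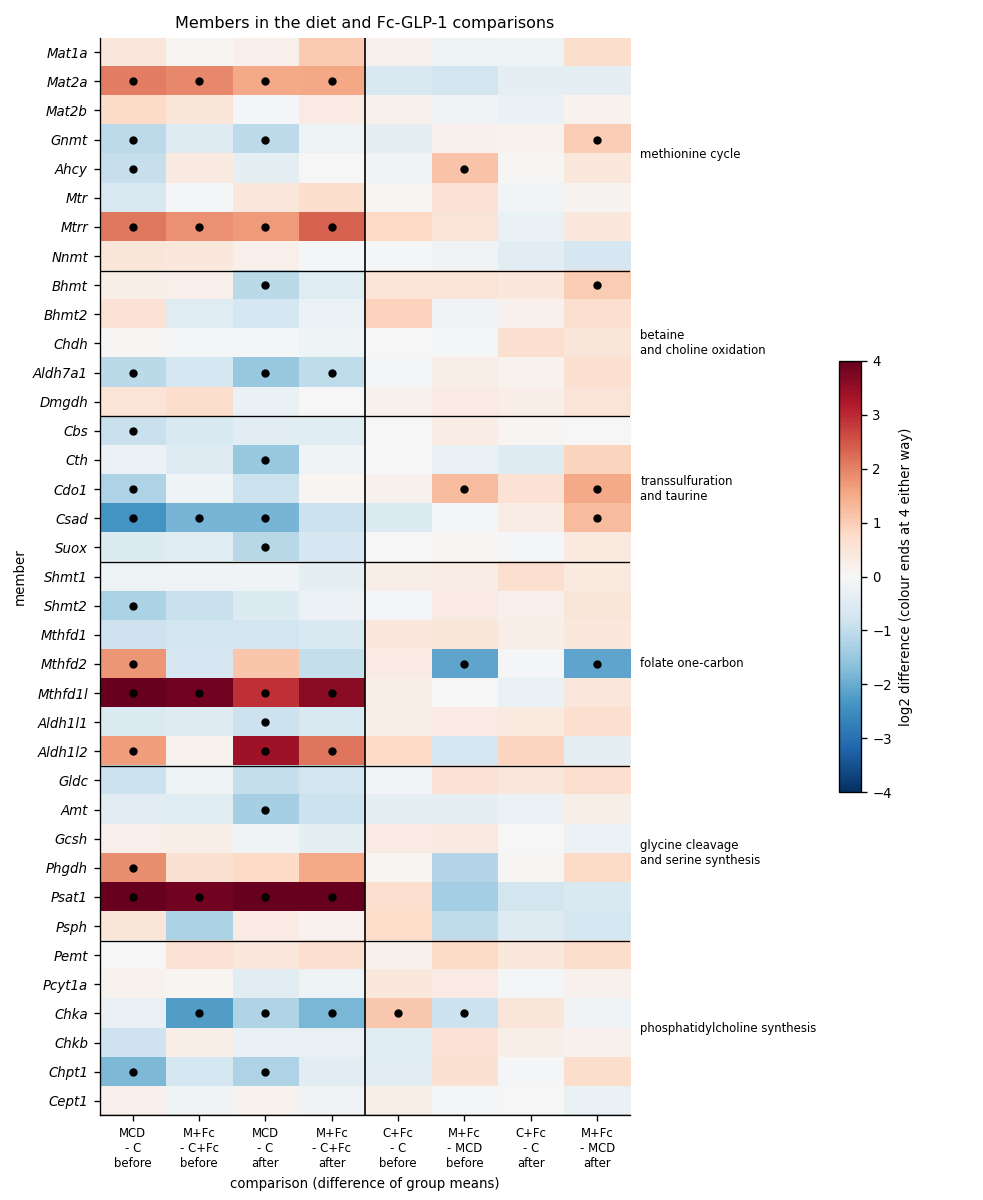
Differences of the 37 tested members (rows, grouped by role) in the 4 diet comparisons (left of the line) and the 4 Fc-GLP-1 comparisons (right), before and after PH, in log2 units, where red is higher and blue is lower in the first-named group and Fc stands for Fc-GLP-1. Black dots mark an adjusted p-value under 0.05. The rows of Mat2a, Mtrr, Mthfd1l and Psat1 are red with a dot in all 4 diet columns, and the diet columns hold more dots than the Fc-GLP-1 columns.

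Markers of other cell types moved with the diet. Before PH, 6 of 6 markers of dividing cells rose on MCD, with a summed level (in units of the 75th percentile) of 0.696 to 1.01 in C and 3.09 to 13.4 in MCD livers. Of 10 macrophage markers, 8 rose and 1 fell, with summed levels of 63.8 to 106.996 and 123.4 to 333.0. Of the hepatocyte markers, 3 of 10 fell there, with summed levels of 4867 to 6573 in C and 3748 to 4193 in MCD livers. Between M+Fc-GLP-1 and C+Fc-GLP-1 before PH, 2 of 6 markers of dividing cells rose, with summed levels of 0.833 to 7.59 and 0.770 to 1.06. Of 5 endothelial markers, 1 rose there, at 41.3 to 51.9 and 22.4 to 34.4. Of 10 macrophage markers, 1 fell, at 48.4 to 116.8 and 79.2 to 133.1. None of the hepatocyte markers passed the test there, at 4515 to 6396 and 4557 to 6629. After PH, none of the 6 markers of dividing cells passed the test between MCD and C. Of 5 neutrophil markers, 3 rose there, with summed levels of 11 to 31.7 in C and 52.6 to 146.6 in MCD livers. Cela1 and Ins2, which are pancreatic genes and 2 of 4 genes on a pancreas list, also rose there, with summed levels of 0.396 to 0.562 and 1.15 to 1.64. They did not pass the test between MCD and C before PH, at 0.502 to 0.817 and 0.347 to 0.515. Whether these cells had a part in the changes below was not tested.

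Among the methionine cycle enzymes, Mat2a and Mtrr rose on MCD in all 4 comparisons. Mat2a encodes the catalytic subunit of the methionine adenosyltransferase found in most tissues, while adult hepatocytes mainly use the product of Mat1a. Mat2a values were 5.29, 4.66, 4.84 and 4.69 in the C livers before PH and 6.62, 7.57, 6.56 and 6.96 in the MCD livers. They were 4.19, 4.27, 3.54 and 5.08 in the C+Fc-GLP-1 livers and 5.27, 6.99, 5.90 and 6.65 in the M+Fc-GLP-1 livers before PH. Every MCD liver lay above every chow liver of the same treatment. After PH, Mat2a values were 4.93, 4.80, 4.85 and 4.97 in C, 5.97, 6.72, 6.49 and 6.45 in MCD, 4.47, 5.08, 4.33 and 4.08 in C+Fc-GLP-1 and 6.21, 6.17, 6.002 and 5.74 in M+Fc-GLP-1 livers, again without overlap between the diets. The diet differences were 2.06 ± 0.32 (SE, adjusted p = 2.9e-05), 1.93 ± 0.32 (adjusted p = 0.00013), 1.52 ± 0.32 (adjusted p = 0.0018) and 1.54 ± 0.32 (adjusted p = 0.0013) in the order vehicle and drug before PH, then vehicle and drug after PH. This is 4.16-fold, 3.81-fold, 2.87-fold and 2.91-fold. The 1 other Mat2a probe passed the test in 2 of these comparisons, at 1.95 (adjusted p = 0.0016) and 1.66 (adjusted p = 0.01), and was at 1.13 (adjusted p = 0.093) and 1.26 (adjusted p = 0.056) in the other pair. Mat1a, by contrast, passed the test in none of the 15 comparisons made, with diet differences of 0.45 ± 0.39, 0.08 ± 0.39, 0.19 ± 0.39 and 1.05 ± 0.39. Mat2b, which encodes the regulatory subunit that pairs with the Mat2a product, was between -0.08 and 0.78 without passing it.

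Mtrr, which encodes the reductase that keeps methionine synthase active, was dim throughout, and was well above background on 14 of 32 arrays. Its values before PH were -6.51, -6.11, -5.16 and -5.96 in C livers, none of them well above background, and -4.23, -3.99, -3.74 and -3.39 in MCD livers, all 4 well above background. The fitted difference was 2.10 ± 0.41 (adjusted p = 0.0004), without a fold, since none of the C values is well above background. With Fc-GLP-1 the values were -3.94, -5.90, -5.04 and -5.73 on chow and -2.40, -4.21, -3.58 and -3.07 on MCD, a difference of 1.84 ± 0.41 (adjusted p = 0.0033) with overlapping groups. After PH, Mtrr values were -4.75, -5.003, -5.53 and -5.85 in C livers, none of them well above background, and -3.74, -3.29, -4.10 and -3.18 in MCD livers, of which 1 was. The fitted difference was 1.71 ± 0.41 (adjusted p = 0.0057), without a fold, since 7 of these 8 values are not well above background. The values of -5.81, -4.57, -5.68 and -6.07 in C+Fc-GLP-1 and -3.60, -2.73, -2.90 and -3.41 in M+Fc-GLP-1 livers after PH did not overlap, with a difference of 2.37 ± 0.41 (adjusted p = 0.00016). On the authors' normalized values 3 of these 4 calls were lost, at differences of 0.28 and 0.39 before PH and 0.35 without the drug after PH (adjusted p from 0.16 to 0.23). Quantile normalization lost both calls without the drug, at 0.35 (adjusted p = 0.096) and 0.26 (adjusted p = 0.31), so the size of the Mtrr difference is not settled. Mtr, methionine synthase itself, did not pass the test in any diet comparison. Its 2 probes differed in sign between MCD and C before PH, at -0.64 for the one used and 0.76 (adjusted p = 0.03) for the other.

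Of the enzymes that use S-adenosylmethionine or its product, Gnmt, glycine N-methyltransferase, which disposes of surplus methyl groups in liver, fell on MCD by 1.04 ± 0.26 before PH (adjusted p = 0.0035) and by 1.06 ± 0.26 after PH (adjusted p = 0.0064), with no overlap in either case. Its values were 9.14, 9.39, 9.21 and 9.52 in C and 8.31, 7.98, 8.56 and 8.24 in MCD livers before PH. In mice given Fc-GLP-1 its diet differences of -0.50 and -0.21 did not pass the test. Ahcy, which hydrolyses S-adenosylhomocysteine, was at 7.10, 6.53, 6.98 and 6.74 in C and 5.77, 5.60, 6.61 and 5.64 in MCD livers before PH. It fell by 0.93 ± 0.28 (adjusted p = 0.014), with 1 MCD liver, the third, inside the range of the C livers. This call was lost on median-centred arrays (adjusted p = 0.19). Nnmt, which methylates nicotinamide, did not pass the test in any comparison, with diet differences from -0.08 to 0.49.

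Among the enzymes of betaine and choline oxidation, Aldh7a1, an aldehyde dehydrogenase that can oxidise betaine aldehyde to betaine, was lower on MCD in 3 comparisons. Its values before PH were 8.31, 6.96, 8.01 and 7.81 in C and 6.56, 6.45, 7.41 and 6.38 in MCD livers, where the second C liver was below the third MCD liver. Its difference was -1.07 ± 0.31 (adjusted p = 0.012). It no longer passed the test on median-centred arrays (adjusted p = 0.15) or without the first C liver (adjusted p = 0.055). After PH the values were 7.06, 7.88, 8.13 and 7.86 in C and 6.78, 5.98, 5.98 and 6.15 in MCD livers, without overlap, and the difference was -1.51 ± 0.31 (adjusted p = 0.0018). After PH with Fc-GLP-1 they were 7.41, 8.03, 8.50 and 7.59 on chow and 7.54, 6.73, 6.71 and 6.50 on MCD, overlapping groups with a difference of -1.01 ± 0.31 (adjusted p = 0.031) that 8 of 17 alternatives lost, among them the omission of the third C+Fc-GLP-1 liver (adjusted p = 0.13). The second Aldh7a1 probe fell in the same 3 comparisons. The difference before PH under Fc-GLP-1, -0.72 ± 0.31, did not pass the test (adjusted p = 0.15).

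Bhmt, which methylates homocysteine with betaine and is among the abundant liver enzymes, did not pass the test between the diets before PH, at 0.22 and 0.20. After PH its values were 8.73, 9.46, 9.34 and 9.17 in C and 7.03, 7.94, 8.71 and 8.67 in MCD livers. All 4 MCD livers were lower, by 1.09 ± 0.31 (adjusted p = 0.02). Without the first MCD liver, the lowest, the difference was -0.74 and no longer passed (adjusted p = 0.12). Of its 3 other probes, 2 fell in this comparison, at -2.40 (adjusted p = 0.0014) and -1.55 (adjusted p = 0.033), and the other was at -0.76 (adjusted p = 0.25). Chdh and Dmgdh, the mitochondrial dehydrogenases of choline and of dimethylglycine, and Bhmt2, a relative of Bhmt, did not pass the test in any diet comparison, with differences between -0.70 and 0.71. Sardh, which takes the last methyl group of this route from sarcosine, was examined after the values were seen, with the marked array left out for it. Its mean was 7.16 in C and 5.90 in MCD livers before PH and 6.61 and 5.33 after PH. It fell on MCD in a fit that kept such genes, by 1.26 ± 0.32 (adjusted p = 0.0042) before PH and by 1.28 ± 0.32 (adjusted p = 0.0078) after PH. Its differences of -0.28 before PH and -0.41 after PH between the diets under Fc-GLP-1 did not pass the test.

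All 5 enzymes of transsulfuration and taurine synthesis had a lower mean on MCD than on chow both before and after PH without the drug, and 3 fell at each time. Csad, which makes hypotaurine from cysteine sulfinate, fell the furthest. Its values before PH were 5.32, 5.92, 6.35 and 6.37 in C and 3.65, 3.11, 4.87 and 2.82 in MCD livers, and 5.46, 5.64, 5.53 and 5.18 in C+Fc-GLP-1 and 4.51, 2.91, 3.30 and 3.58 in M+Fc-GLP-1 livers. The diets did not overlap with either treatment. The differences were -2.38 ± 0.37 (adjusted p = 3.8e-05) and -1.87 ± 0.37 (adjusted p = 0.0012), which is 5.19-fold and 3.67-fold lower. After PH the values were 4.19, 5.20, 4.76 and 4.67 in C and 2.31, 2.62, 3.03 and 3.42 in MCD livers, 3.62-fold lower on MCD (difference -1.86 ± 0.37, adjusted p = 0.0012). After PH under Fc-GLP-1 they were 5.45, 4.56, 5.13 and 4.85 on chow and 4.79, 4.03, 4.07 and 3.62 on MCD, and the difference of -0.87 ± 0.37 did not pass the test (adjusted p = 0.13).

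Cdo1, cysteine dioxygenase, which supplies the substrate of Csad, was at 7.94, 6.58, 8.37 and 7.72 in C and 6.82, 6.34, 6.85 and 5.61 in MCD livers before PH. It fell by 1.25 ± 0.35 (adjusted p = 0.009) with 1 overlapping C liver, the second. In all, 3 alternatives lost the call, which were median centring, quantile normalization and the authors' values (adjusted p from 0.11 to 0.25). After PH its values were 6.97, 7.43, 7.27 and 6.87 in C and 6.01, 5.50, 6.94 and 6.63 in MCD livers, a difference of -0.86 ± 0.35 that did not pass the test (adjusted p = 0.11). Cth, cystathionine gamma-lyase, which releases cysteine, was at 6.77, 6.001, 6.74 and 6.42 in C and 6.61, 5.83, 6.60 and 5.95 in MCD livers before PH and did not pass the test. After PH it was at 6.22, 6.78, 7.02 and 7.04 in C and 4.85, 5.07, 5.38 and 5.65 in MCD livers, every MCD liver lower, and fell by 1.53 ± 0.29 (adjusted p = 0.00076), or 2.89-fold. Its other probe fell there as well, at -1.996 (adjusted p = 0.00016). Cbs, cystathionine beta-synthase, fell before PH only among the diet comparisons, by 0.90 ± 0.26 (adjusted p = 0.011). The Cbs call was lost on median-centred arrays, at -0.53 (adjusted p = 0.19), and without the first C liver (adjusted p = 0.059). Suox, sulfite oxidase, fell after PH only, by 1.11 ± 0.32 (adjusted p = 0.023), which 9 of 17 alternatives lost. Whether these differences changed between the times was not tested in the untreated livers.

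**Figure D2:**
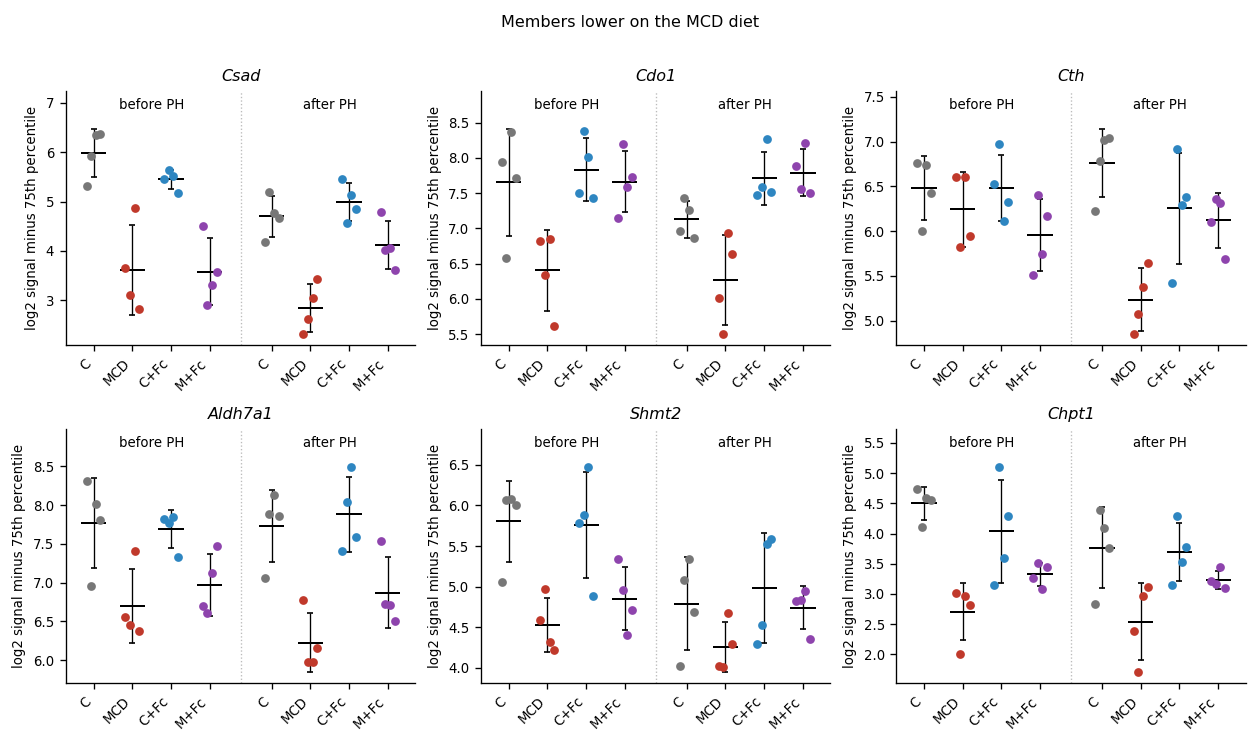
Levels of 6 members that fell on MCD in at least 1 diet comparison, in log2 units relative to the 75th percentile of each array (vertical axis, which does not start at 0), in the 8 groups (horizontal axis, Fc for Fc-GLP-1). Points are arrays, the line is the mean of 4 and the bar 1 SD. In Csad the red MCD points lie below the grey C points at both times, and in Cth they do so after PH alone.

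In folate metabolism the diet difference was largest in 3 of the 4 comparisons for Mthfd1l, the mitochondrial enzyme that releases formate, a source of one-carbon units for the cytosol. Its values before PH were -2.60, -2.67, -2.83 and -2.64 in C and 1.03, 2.02, 0.92 and 1.77 in MCD livers, and -2.37, -2.96, -1.90 and -2.49 in C+Fc-GLP-1 and 1.79, 0.30, 1.95 and 1.70 in M+Fc-GLP-1 livers. After PH they were -0.14, -2.13, -2.34 and -1.38 in C, 1.05, 1.11, 1.60 and 1.88 in MCD, -1.27, -1.70, -1.84 and -2.19 in C+Fc-GLP-1 and 2.30, 1.57, 1.57 and 2.07 in M+Fc-GLP-1 livers. In each of the 4 comparisons every MCD liver was above every chow liver, although the first C liver after PH, at -0.14, stood above the other 3. The differences were 4.12 ± 0.38 (adjusted p = 1.8e-08) and 3.87 ± 0.38 (adjusted p = 6.4e-08) before PH and 2.91 ± 0.38 (adjusted p = 5.6e-06) and 3.62 ± 0.38 (adjusted p = 2.3e-07) after PH, without and with Fc-GLP-1, or 17.4-fold, 14.6-fold, 7.5-fold and 12.3-fold. With quantile normalization and on the authors' values the differences before PH were smaller, at 2.89 and 2.75 without and 3.02 and 2.93 with Fc-GLP-1. The second Mthfd1l probe rose in all 4 as well, by 2.74 (adjusted p = 0.00081) to 3.25 (adjusted p = 0.00012).

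Aldh1l2, which oxidises formyl-folate in mitochondria, was at -3.35, -4.37, -3.60 and -2.996 in C and -1.68, -1.14, -2.41 and -2.37 in MCD livers before PH. It rose by 1.68 ± 0.48 (adjusted p = 0.01) there. At -2.998, -2.36, -2.81 and -2.91 in C+Fc-GLP-1 and -1.72, -2.45, -2.65 and -3.66 in M+Fc-GLP-1 livers it did not pass the test (adjusted p = 0.88). After PH it was at -5.18, -5.39, -3.84 and -4.74 in C and -0.19, -0.67, -2.48 and -2.30 in MCD livers, 10.4-fold higher on MCD (difference 3.38 ± 0.48, adjusted p = 1.7e-05). It was at -4.55, -4.20, -3.27 and -3.74 in C+Fc-GLP-1 and -1.60, -1.96, -2.72 and -0.94 in M+Fc-GLP-1 livers, a rise of 2.13 ± 0.48 (adjusted p = 0.0029). Neither pair of groups overlapped after PH, and 2 of the 4 C livers were not well above background. With quantile normalization and on the authors' values these differences after PH were 1.57 and 1.70 without and 0.89 and 0.99 with Fc-GLP-1, and on the authors' values the difference before PH was 1.01.

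Mthfd2, the mitochondrial dehydrogenase of the same route that is typical of dividing cells and little used in resting adult liver, was at -4.01, -3.08, -2.72 and -2.92 in C and -0.95, -0.48, -2.19 and -2.07 in MCD livers before PH. It rose by 1.76 ± 0.50 (adjusted p = 0.0099), in the comparison in which the markers of dividing cells and of macrophages rose. With quantile normalization and on the authors' values the difference was 0.77 and 0.71. Its values of -1.60, -2.75, -2.69 and -2.66 in C and -0.95, -0.73, -2.06 and -1.54 in MCD livers after PH overlapped and the difference of 1.10 ± 0.50 did not pass the test (adjusted p = 0.16). Shmt2, the mitochondrial enzyme that takes the one-carbon unit from serine, went the other way. It was at 5.06, 6.07, 6.08 and 6.001 in C and 4.59, 4.97, 4.32 and 4.22 in MCD livers before PH and fell by 1.28 ± 0.34 (adjusted p = 0.0062), with every MCD liver below every C liver. Shmt1 and Mthfd1, which work in the cytosol, did not pass the test in any diet comparison, and Mthfd1 was lower on MCD in each, from -0.83 to -0.61. For Aldh1l1, the cytosolic counterpart of Aldh1l2, the brightest probe fell after PH (-0.86 ± 0.26, adjusted p = 0.027), but a second probe rose on MCD before PH, at 1.32 (adjusted p = 0.0015), so the probes of this gene disagree. With their mean the call after PH was lost (adjusted p = 0.72).

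Psat1, phosphoserine aminotransferase in the synthesis of serine from glycolysis, had the largest diet difference of the 37 members in all 4 comparisons, although Mthfd1l, at 3.87, was level with it under Fc-GLP-1 before PH. Its values before PH were -4.89, -3.07, -3.25 and -3.05 in C and 2.14, 2.85, 2.51 and 1.89 in MCD livers, and -5.004, -2.73, -1.76 and -2.07 in C+Fc-GLP-1 and 1.05, 1.17, 0.68 and 1.02 in M+Fc-GLP-1 livers, where the first array of each chow group was not well above background. After PH they were -0.56, -1.89, -2.38 and -2.42 in C, 2.59, 2.46, 2.65 and 2.94 in MCD, -1.71, -3.88, -1.81 and -2.75 in C+Fc-GLP-1 and 1.57, 2.79, 2.30 and 1.60 in M+Fc-GLP-1 livers. No MCD liver overlapped with a chow liver. Psat1 was 60.3-fold higher in MCD than in C livers before PH (difference 5.91 ± 0.54, adjusted p = 1.5e-08) and 14.7-fold higher in M+Fc-GLP-1 than in C+Fc-GLP-1 livers (3.87 ± 0.54, adjusted p = 1.4e-05). After PH the differences were 4.47 ± 0.54 (adjusted p = 1.9e-06) and 4.61 ± 0.54 (adjusted p = 9.1e-07). These Psat1 calls held in all 17 alternatives, but the differences were smaller with quantile normalization and on the authors' values. They were 4.18 and 4.05 between MCD and C before PH, or 18.1-fold and 16.5-fold, and 2.28 and 2.16 under Fc-GLP-1 before PH, below those of Mthfd1l. After PH under Fc-GLP-1 they were 3.34 and 3.42. The second probe rose in all 4 comparisons, by 2.07 (adjusted p = 0.00049) to 4.11 (adjusted p = 1.9e-08).

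Of the neighbouring steps of serine synthesis, 1 passed the test in a diet comparison. Phgdh, which starts the route, was at -3.002, -2.13, -2.87 and -2.92 in C and -1.09, -0.27, -0.98 and -1.17 in MCD livers before PH and rose by 1.85 ± 0.53 (adjusted p = 0.011). The call was lost with quantile normalization, at 1.10 (adjusted p = 0.085), and on the authors' values, at 1.05 (adjusted p = 0.11). Its diet difference did not pass the test elsewhere, although its 2 other probes also rose after PH under Fc-GLP-1, by 1.47 (adjusted p = 0.0039) and 1.87 (adjusted p = 0.0032). Psph, which ends it, did not pass the test, with diet differences of 0.48, -1.27, 0.34 and 0.13. Of the glycine cleavage system, which breaks glycine down in mitochondria, Amt fell after PH by 1.33 ± 0.40 (adjusted p = 0.027), a call that 9 of 17 alternatives lost, while Gldc and Gcsh did not pass the test in any diet comparison.

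**Figure D3:**
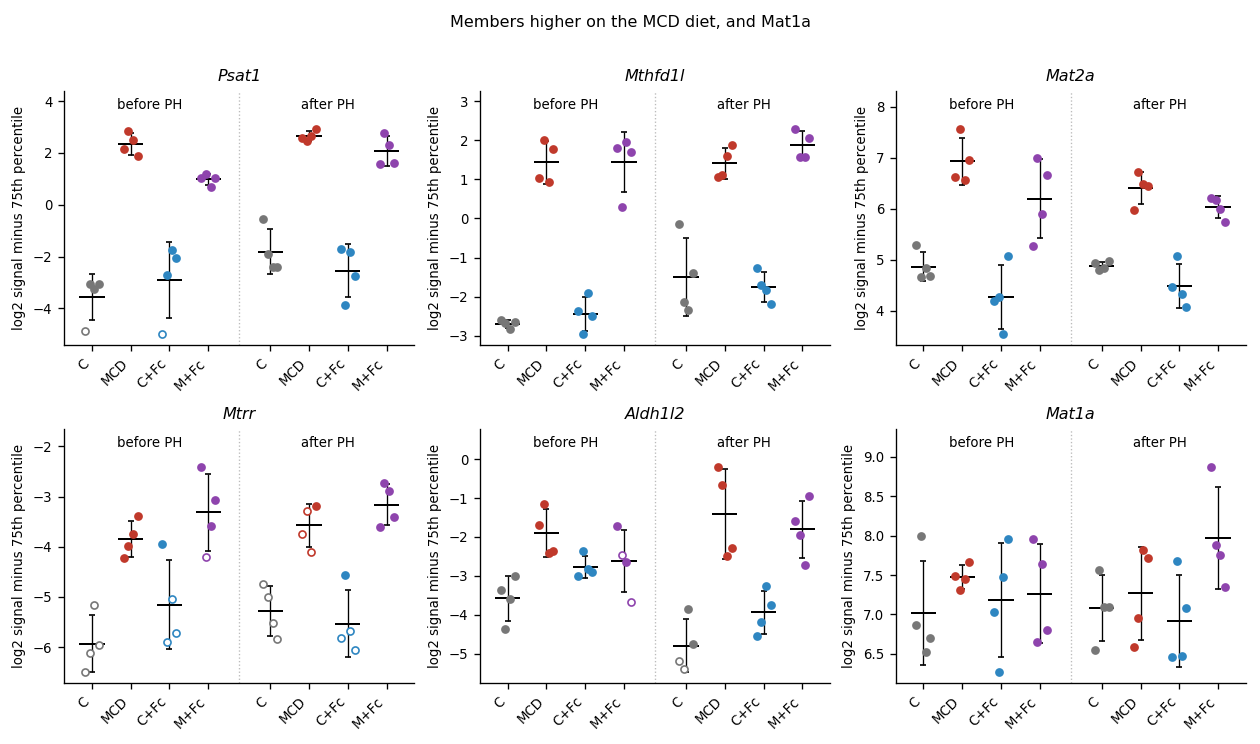
Levels of the 5 members that rose on MCD in 3 or 4 diet comparisons, and of Mat1a, in log2 units relative to the 75th percentile of each array (vertical axis, which does not start at 0), in the 8 groups (horizontal axis, Fc for Fc-GLP-1). Filled points are arrays on which the probe was well above background and open points those on which it was not, the line is the mean of 4 and the bar 1 SD. The red and purple MCD points of Psat1, Mthfd1l and Mat2a lie above the grey and blue chow points of the same treatment at both times, whereas those of Mat1a overlap.

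The sequences before the start sites of Psat1, Mthfd1l and Mat2a are shown because these 3 genes rose in all 4 diet comparisons under every alternative. They are the 250 bases before the annotated start (RefSeq, build GRCm38.p6, 5′ to 3′) at chr19:15925060-15925309 on the minus strand for Psat1 (the first of its 2 entries), chr10:3972825-3973074 on the plus strand for Mthfd1l and chr6:72439557-72439806 on the minus strand for Mat2a, with capitals for matches, on either strand, to TGATGNAA (the core of the amino acid response element), TGACGT (the core of a cyclic AMP response element), CCAAT (the CCAAT box) and TATAAA (the TATA box). The motifs do not overlap in these sequences.
Psat1: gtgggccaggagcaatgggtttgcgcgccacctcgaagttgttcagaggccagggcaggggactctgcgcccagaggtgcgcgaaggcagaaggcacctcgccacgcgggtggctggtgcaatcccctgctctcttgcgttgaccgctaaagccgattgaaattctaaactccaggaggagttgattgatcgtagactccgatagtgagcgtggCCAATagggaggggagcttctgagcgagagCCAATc
Mthfd1l: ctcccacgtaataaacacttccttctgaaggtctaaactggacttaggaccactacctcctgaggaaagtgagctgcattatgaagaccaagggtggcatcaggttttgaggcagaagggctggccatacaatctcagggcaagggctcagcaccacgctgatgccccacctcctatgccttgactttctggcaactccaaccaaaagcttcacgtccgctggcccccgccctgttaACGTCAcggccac
Mat2a: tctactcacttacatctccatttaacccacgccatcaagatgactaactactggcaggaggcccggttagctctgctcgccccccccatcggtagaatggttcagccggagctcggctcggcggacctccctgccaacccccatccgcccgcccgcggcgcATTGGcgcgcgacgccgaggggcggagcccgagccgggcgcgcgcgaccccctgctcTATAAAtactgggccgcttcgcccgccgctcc
CCAAT was found 2 times before Psat1 and 1 time before Mat2a, TATAAA 1 time before Mat2a and TGACGT 1 time before Mthfd1l. The window of the other Psat1 entry, not printed, held none of these motifs. Of the 32851 windows of this length in the table, 3.45% held TGATGNAA, 6.47% TGACGT, 33.8% CCAAT and 12.4% TATAAA. Start sites were listed for 32 of the 38 members, with 42 windows, of which 0 held TGATGNAA, 3 TGACGT, 25 CCAAT and 3 TATAAA.

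In phosphatidylcholine synthesis, Chka, the choline kinase that starts the CDP-choline route, stood out. Before PH its values were 2.26, 2.38, 2.71 and 2.62 in C and 2.37, 2.28, 1.99 and 2.13 in MCD livers, which overlapped, and the difference of -0.30 ± 0.23 did not pass the test (adjusted p = 0.35). With Fc-GLP-1 they were 3.55, 3.59, 3.30 and 3.88 on chow and 1.27, 1.76, 1.24 and 1.07 on MCD, far apart. Chka was 4.74-fold lower on MCD (difference -2.25 ± 0.23, adjusted p = 1.2e-07). After PH they were 3.02, 3.31, 2.66 and 2.98 in C and 2.02, 1.04, 1.99 and 2.06 in MCD livers (difference -1.22 ± 0.23, adjusted p = 0.00074). They were 3.55, 3.34, 3.33 and 3.70 in C+Fc-GLP-1 and 1.19, 1.43, 2.09 and 1.88 in M+Fc-GLP-1 livers (difference -1.83 ± 0.23, adjusted p = 3e-06). The diets did not overlap in either comparison after PH. With Fc-GLP-1, all 4 Chka probes were lower on MCD than on chow at both times and passed the test, and without it 3 of 4 did after PH.

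Chpt1, which catalyses the last step of the route, was at 4.74, 4.11, 4.59 and 4.56 in C and 3.02, 2.01, 2.97 and 2.82 in MCD livers before PH and fell 3.47-fold (difference -1.79 ± 0.36, adjusted p = 0.00057). After PH it was at 2.84, 4.38, 4.10 and 3.75 in C and 2.39, 1.70, 2.96 and 3.11 in MCD livers and fell by 1.23 ± 0.36 (adjusted p = 0.023) with overlapping groups, a call that 9 of 17 alternatives lost, among them the omission of the second MCD liver (adjusted p = 0.12). With the mean of its probes the difference before PH was -1.11. A second Chpt1 probe did not pass the test at either time, at -0.42 (adjusted p = 0.56) and -0.03 (adjusted p = 0.98). Pemt, which methylates phosphatidylethanolamine, Pcyt1a, the rate-limiting step of the CDP-choline route, and Chkb and Cept1, relatives of Chka and Chpt1, did not pass the test in any diet comparison, with differences from -0.82 to 0.68. The 2 other Pemt probes disagreed, 1 of them falling before PH, at -0.52 (adjusted p = 0.049), and the other rising after PH, at 0.92 (adjusted p = 0.017), between MCD and C.

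On chow, Chka was the member that changed with Fc-GLP-1. Between C+Fc-GLP-1 and C before PH, 1 of 37 members changed, beside 2.1% of all genes (0.965% higher and 1.13% lower), and this was Chka, which rose by 1.09 ± 0.23 (adjusted p = 0.014) without overlap. These counts depend on the processing, as 3 members and 11.7% of all genes changed with quantile normalization, 3 and 10% on the authors' values, and 0 and 0.228% with those groups fitted alone. Between C+Fc-GLP-1 and C after PH, 0 members passed limma's test, beside 2.07% of all genes (1.14% higher and 0.937% lower), with differences from -0.73 to 0.85 and 1 member at an unadjusted p-value under 0.05. On MCD, 4 members changed between M+Fc-GLP-1 and MCD before PH, 2 in each direction, beside 7.24% of all genes (4.46% higher and 2.78% lower), and 5 after PH, 4 higher and 1 lower, beside 6.5% of all genes (3.71% higher and 2.78% lower). The median over the 37 members in the latter comparison was 0.43, against 0.05 over all genes, and on median-centred arrays 3 members were called there. The hepatocyte markers had a median difference of 0.44 there, with 1 of 10 higher, and their summed levels were 3986 to 4341 in MCD and 4308 to 6772 in M+Fc-GLP-1 livers after PH. Their part in these rises was not tested.

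Some of the members with a lower mean in MCD than in C livers were higher with Fc-GLP-1. The same MCD livers stand in both comparisons, so low values in them add to both differences, which are not independent. Cdo1 was at 7.16, 8.19, 7.58 and 7.73 in M+Fc-GLP-1 livers before PH and 7.89, 7.57, 8.22 and 7.50 after PH, above every MCD liver of the same time, and rose by 1.26 ± 0.35 (adjusted p = 0.027) and 1.52 ± 0.35 (adjusted p = 0.0083). The call after PH held in all 17 alternatives and the one before PH in 10. Ahcy was at 7.10, 6.79, 7.24 and 7.09 in M+Fc-GLP-1 livers before PH, all 4 above the MCD livers, a rise of 1.15 ± 0.28 (adjusted p = 0.013) that median centring lost (adjusted p = 0.096). After PH, Csad, Gnmt and Bhmt rose by 1.28 ± 0.37 (adjusted p = 0.037), 0.99 ± 0.26 (adjusted p = 0.019) and 1.02 ± 0.31 (adjusted p = 0.044), each without overlap. The Csad call held in 6, the Gnmt call in 12 and the Bhmt call in 5 of 17 alternatives. With quantile normalization and on the authors' values Gnmt was at 0.57 and 0.56 (adjusted p = 0.12 in both) and Bhmt at 0.43 and 0.43. Without the first MCD liver after PH the differences were 1.10 (adjusted p = 0.13) for Csad and 0.67 (adjusted p = 0.21) for Bhmt. For Bhmt, 2 other probes rose further, at 2.37 (adjusted p = 0.0039) and 1.79 (adjusted p = 0.024). The members that rose the most on MCD did not pass the test for the drug. Psat1 differed by -1.37 (adjusted p = 0.11) before PH and -0.59 (adjusted p = 0.55) after PH, Mthfd1l by 0.00 (adjusted p = 1) and 0.46 (adjusted p = 0.51), and Mat2a by -0.73 (adjusted p = 0.15) and -0.38 (adjusted p = 0.52). The second Psat1 probe, however, fell before PH, at -1.42 (adjusted p = 0.024).

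Mthfd2 and Chka were lower with Fc-GLP-1 on MCD. Mthfd2 was at -3.71, -3.28, -3.68 and -3.46 in M+Fc-GLP-1 livers before PH and -3.29, -4.73, -3.32 and -2.40 after PH, below every MCD liver of the same time, with 3 and 2 of the 4 M+Fc-GLP-1 arrays not well above background. It fell by 2.11 ± 0.50 before PH (adjusted p = 0.012) and again fell by 2.11 ± 0.50 (adjusted p = 0.01). No fold is given, since 5 of these 8 M+Fc-GLP-1 values are not well above background. With quantile normalization and on the authors' values the differences were -1.06 and -0.93 before PH and -0.91 and -1.06 after PH. The call after PH was lost without the second M+Fc-GLP-1 liver after PH (adjusted p = 0.056). Of 10 macrophage markers, 4 fell between M+Fc-GLP-1 and MCD before PH, with summed levels of 48.4 to 116.8 and 123.4 to 333.0, and 2 of 10 after PH. Of 5 neutrophil markers, 4 fell after PH, with summed levels of 9.14 to 39.1 and 52.6 to 146.6. None of the 6 markers of dividing cells passed the test in either comparison, at median differences of -1.31 before PH and -0.85 after PH. Their summed levels before PH were 0.833 to 7.59 in M+Fc-GLP-1 and 3.09 to 13.4 in MCD livers. After PH these levels were 1.21 to 3.68 and 2.37 to 4.25. Between the times in C livers, 8 of 10 macrophage markers rose, and Mthfd2, with a higher mean after PH, did not pass the test. Whether these cells had a part in the Mthfd2 differences was not tested. Chka fell by 0.86 ± 0.23 between M+Fc-GLP-1 and MCD before PH (adjusted p = 0.025), without overlap, but 8 of 17 alternatives lost this call and its 4 probes ranged from 0.00 to -1.46. After PH it was at -0.13 ± 0.23 and did not pass the test (adjusted p = 0.79).

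The test of whether the diet difference depended on Fc-GLP-1 compares diet differences that each lie within a slide before PH. There, 3 of 37 members passed, beside 6.15% of all genes (3.59% higher and 2.56% lower). On median-centred arrays the split turned, with 0.704% of all genes higher and 11.5% lower, and 0 members higher and 5 lower. The diet difference in Chka changed by -1.94 ± 0.33 with Fc-GLP-1 (adjusted p = 0.003). This held in all 25 alternatives. The diet difference in Mthfd2 moved from 1.76 without to -0.68 with Fc-GLP-1, a change of -2.44 ± 0.71 (adjusted p = 0.038) that held in 13 of 25 alternatives. That in Ahcy moved from -0.93 to 0.37, a change of 1.30 ± 0.39 (adjusted p = 0.047) that held in 7 of 25. After PH, 0 members and 0% of all genes (0% higher and 0% lower) passed limma's test of the same interaction, and 3 members had an unadjusted p-value under 0.05. None of the 37 members passed the test of whether the diet difference under Fc-GLP-1 changed between the times, beside 0.0951% of all genes (0.0475% higher and 0.0475% lower), and 2 had an unadjusted p-value under 0.05.

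**Figure D4:**
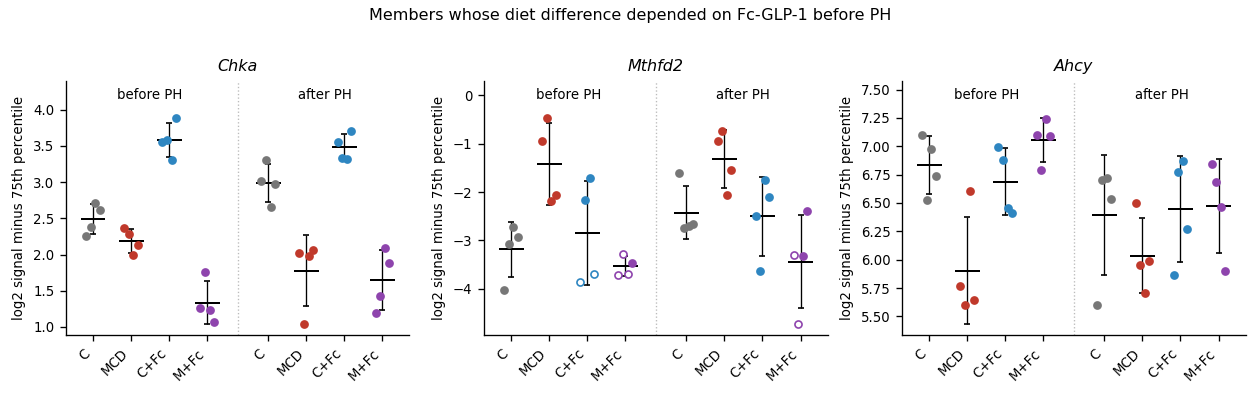
Levels of the 3 members that passed the test of whether the diet difference depended on Fc-GLP-1 before PH, of which Chka alone passed in every alternative. Values are in log2 units relative to the 75th percentile of each array (vertical axis, which does not start at 0), in the 8 groups (horizontal axis, Fc for Fc-GLP-1). Filled points are arrays on which the probe was well above background and open points those on which it was not, the line is the mean of 4 and the bar 1 SD. Before PH, Chka is highest in the blue C+Fc-GLP-1 livers and lowest in the purple M+Fc-GLP-1 livers.

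Between the times, 6 of 37 members changed in C livers, 2 higher and 4 lower, beside 14% of all genes (6.09% higher and 7.91% lower), and 4 in MCD livers, all lower, beside 9.46% of all genes (6.23% higher and 3.23% lower). With Fc-GLP-1, 0 members passed limma's test on chow, beside 0.837% of all genes (0.48% higher and 0.357% lower). There, 5 members had an unadjusted p-value under 0.05, and 2 passed after quantile normalization, beside 6.1% of all genes. No share of all genes was taken at an unadjusted p-value, here or above. On MCD with Fc-GLP-1, 1 member changed, beside 1.71% of all genes (0.823% higher and 0.889% lower). In C livers Psat1 rose by 1.75 ± 0.54 (adjusted p = 0.029) and Mthfd1l by 1.19 ± 0.38 (adjusted p = 0.036). Without the first C liver after PH both missed the threshold, at 1.33 (adjusted p = 0.14) and 0.74 (adjusted p = 0.20). Csad, Shmt2, Gnmt and Pemt fell there, by 1.29, 1.02, 0.82 and 1.10. In this comparison 5 of 6 markers of dividing cells and 8 of 10 macrophage markers rose. Of 10 hepatocyte markers, 1 fell, with summed levels of 4867 to 6573 before PH and 2973 to 5106 after PH. The part of these cells in the changes was not tested. In MCD livers Bhmt, Cth, Dmgdh and Gnmt fell, by 1.13, 1.01, 1.01 and 0.83, and in M+Fc-GLP-1 livers Phgdh rose by 2.01 ± 0.53 (adjusted p = 0.047). The calls of Shmt2 in C, Gnmt in C and MCD, and Phgdh each held in 7 of 16 alternatives. In C livers those of Psat1, Mthfd1l, Csad and Pemt held in 10, 6, 13 and 14, with Pemt at -0.21 (adjusted p = 0.38) after quantile normalization. In MCD livers those of Bhmt, Cth and Dmgdh held in 12, 11 and 15.

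Around these enzymes, 86 further genes of the same metabolism were tested, of which 8 rose and 13 fell between MCD and C before PH. This is 9.3% and 15.1%, against 10.9% and 15.5% of all genes, so the shares are near each other. Of 15 folate enzymes and carriers, 3 rose and 1 fell. Mthfd2l, a mitochondrial relative of Mthfd2, by 1.32 ± 0.27 (adjusted p = 0.00082), and Slc25a32, the mitochondrial folate carrier, by 1.01 ± 0.33 (adjusted p = 0.024), rose with Slc19a1, the folate carrier of the cell surface. Ftcd, of histidine breakdown, was the gene that fell, by 0.84 ± 0.26 (adjusted p = 0.017). Of 14 genes of methionine salvage and polyamines, 3 rose and 1 fell, with Smox, spermine oxidase, at 2.09 ± 0.53 (adjusted p = 0.0047), Odc1, ornithine decarboxylase, at 1.48 ± 0.35 (adjusted p = 0.0023), and Sms, spermine synthase, at -0.73 ± 0.25 (adjusted p = 0.032). Of 14 genes of glycine and serine catabolism, 4 fell and 0 rose, led by Pipox, which oxidises sarcosine and pipecolate in peroxisomes, at -2.28 ± 0.28 (adjusted p = 1.7e-06), and Hao1, glycolate oxidase, at -1.51 ± 0.41 (adjusted p = 0.008).

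Of 13 small-molecule methyltransferases and related genes, 2 rose and 4 fell between MCD and C before PH. As3mt, which methylates arsenic, rose by 1.58 ± 0.43 (adjusted p = 0.0072) and Icmt, which methylates prenylated proteins, by 0.62 ± 0.21 (adjusted p = 0.028). Pnmt and Inmt, which methylate noradrenaline and indole amines, were at -1.89 ± 0.40 (adjusted p = 0.001) and -1.76 ± 0.46 (adjusted p = 0.0054). Of 11 genes of cysteine, glutathione and sulfide, 2 fell, Ethe1, the sulfur dioxygenase of mitochondria, by 1.69 ± 0.25 (adjusted p = 2e-05) and Gclm, a subunit of the first enzyme of glutathione synthesis, by 0.94 ± 0.32 (adjusted p = 0.029). Of 19 genes of choline and phospholipid handling, 1 changed, Slc44a3, a choline transporter-like protein, which fell by 1.08 ± 0.29 (adjusted p = 0.0063). Among the 86 genes, Slc19a1 and Slc25a32 rose and Ethe1 and Pipox fell in all 4 diet comparisons. With values already seen, Gpcpd1, which releases choline from glycerophosphocholine, was added as a choline gene that rose with Fc-GLP-1 on MCD, by 2.48 ± 0.43 (adjusted p = 0.0011) before PH and 1.40 ± 0.43 (adjusted p = 0.046) after PH. Its diet difference before PH was 3.40 ± 0.61 higher with Fc-GLP-1 than without (adjusted p = 0.0036).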

How the data were processed

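Liver RNA was measured on 32 Agilent 1-colour arrays, 4 in each of 8 groups taken from the labels. The authors deposited the scanner's intensity values, which per the file headers Feature Extraction 10.7.3.1 had background-subtracted and detrended within each array, and a table of normalized log2 values, for which the submitters' processing notes name limma and which had been scaled separately before and after PH. Main values were log2 of the processed intensity minus its array's 75th percentile over 59305 spots (controls excluded), which lay between 209.4 and 778.4. Spots the scanner software marked as outliers were left out, which removed 426 probes with no other spot on at least 1 array. Probes were kept (28958) when every array of at least 1 group showed them well above background, and the brightest stood for a gene. Probes were named by RefSeq accession where one matched.

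The 8 groups were fitted together in limma 3.58.1 (R 4.3.3), with 24 residual degrees of freedom and Benjamini-Hochberg adjustment over 21031 genes for each of 15 comparisons at a threshold of 0.05. The fit was tested on simulated data. No fold was given where a group had a probe well above background on none of its arrays. The members and lists were chosen with earlier results of these data known. Values on every array were given for members that passed in 3 of 4 diet comparisons in the same direction, were among the 3 largest changes of either direction in a diet or Fc-GLP-1 comparison, or passed an interaction, and other pathway genes for the 2 largest changes per list and direction between MCD and C before PH. Gnmt, Phgdh, Sardh, Slc19a1 and Gpcpd1 were added after their values were seen. A listed pathway gene is not reported here and is left out of the list counts. The series' design text calls the 4 livers of a group independent, while tissue before and after PH may share mice, and the number of arrays limits the precision. Alternatives were normexp with an offset of 50 and quantile normalization, 2 other centrings, the authors' values, dim probes kept, the mean of a gene's probes, only the groups compared, a replicate block, each array left out, and, chosen after seeing the data, genes with a spot marked as an outlier on 1 array.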

Additional observations from a re-analysis of the deposited data

Results flagged for a closer look

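In 120 groups of 4 arrays examined for the 15 members given array by array, 1 array stood apart from the other 3 in 10 cases, and chance gives about 1 in 20. For Psat1 the first C array before PH was at -4.89 (the others from -3.25 to -3.05), and for Shmt2 the same array was at 5.06 (6.001 to 6.08). For Mthfd2 the first C array after PH was at -1.60 (-2.75 to -2.66), and for Ahcy it was at 5.60 (6.54 to 6.72). For Ahcy the third MCD array before PH was at 6.61 (5.60 to 5.77). For Mthfd1l the second M+Fc-GLP-1 array before PH was at 0.30 (1.70 to 1.95), still above every C+Fc-GLP-1 array. For Chka the second MCD array after PH was at 1.04 (1.99 to 2.06). For Bhmt the second M+Fc-GLP-1 array after PH was at 9.43 (8.99 to 9.01), for Aldh7a1 the fourth C+Fc-GLP-1 array before PH was at 7.33 (7.77 to 7.85), and for Cdo1 the third C+Fc-GLP-1 array after PH was at 8.27 (7.48 to 7.59).

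The diet difference before PH depended on Fc-GLP-1, by limma's interaction test, in 3 members. Its change with Fc-GLP-1 was -1.94 for Chka, -2.44 for Mthfd2 and 1.30 for Ahcy. Of 25 alternatives, the Chka result held in 25, that of Mthfd2 in 13 and that of Ahcy in 7.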

How the results depend on the processing

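Of 67 results in which a member passed the test, 30 passed under every alternative run and 0 changed direction. The counts of members called in the diet comparisons stayed within 1.5 times the main count. Counts moved further in the other comparisons, and the cause was not tested. Between C+Fc-GLP-1 and C before PH, 1 member became 3 with quantile normalization, 3 with the authors' values, 2 on median-centred arrays and 0 with only those arrays fitted. For M+Fc-GLP-1 against MCD before PH, 4 became 2 on median-centred arrays. After PH, 5 became 2 with quantile normalization or the authors' values, and 3 on median-centred arrays, without the filter on dim probes or with only the groups compared. Between the times, 6 in C became 3 without the filter and 2 with only the groups compared, 4 in MCD became 1 with quantile normalization, 0 in C+Fc-GLP-1 became 2 with it, and 1 in M+Fc-GLP-1 became 2 with it and 0 on median-centred arrays or with only the groups compared. The interaction before PH went from 3 to 5 on median-centred arrays and 1 without the filter.

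With each array left out in turn, the counts between MCD and C ranged from 13 to 18 before PH and from 10 to 17 after PH, and between M+Fc-GLP-1 and C+Fc-GLP-1 from 6 to 7 and from 6 to 9. For Fc-GLP-1 they ranged from 1 to 1 on chow and 2 to 5 on MCD before PH, and from 0 to 0 and 1 to 6 after PH. On MCD before PH, 2 were called without MCD array 2 or M+Fc-GLP-1 array 3 or 4. After PH, 1 was called without M+Fc-GLP-1 array 2, 2 without M+Fc-GLP-1 array 1 or MCD array 1, and 3 without M+Fc-GLP-1 array 3 or MCD array 2. Between the times they ranged from 1 to 7 in C (1 without array 1 after PH, 3 without array 4 after PH or array 2, 3 or 4 before PH), from 1 to 4 in MCD (1 without array 3 before PH or array 1 or 2 after PH, 2 without array 1 before PH), from 0 to 0 in C+Fc-GLP-1 and from 0 to 1 in M+Fc-GLP-1 (0 without array 2, 3 or 4 of either time). The interaction before PH ranged from 1 to 4 (1 without C array 1, MCD array 1 or 2, C+Fc-GLP-1 array 2 or 3, or M+Fc-GLP-1 array 1, 3 or 4), and the other 2 interactions from 0 to 0.

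Arrays with the same replicate number deviated together little on average (mean correlation 0.02 over 112 pairs), but 19 pairs were over 0.1, the highest at 0.52. Pairs with different numbers had a mean of -0.01, with 36 of 336 over 0.1 and the highest at 0.42. The 16 same-numbered pairs between the times, which may share mice, lay from -0.05 to 0.09. No pairing was assumed in the main fit. With the replicate number as a block, the counts stayed within 1.5 times and the Ahcy interaction missed the threshold (adjusted p = 0.051). The authors' values, scaled separately before and after PH, raised the median over all genes by 0.47 to 0.53 between the times and were not used for members there. The share of all genes called also moved. Over the alternatives of scale, filter and fit it ranged from 17.7% to 27.4% and 5.24% to 13.1% between MCD and C before and after PH, and from 4.57% to 11.9% and 5.96% to 13.6% between M+Fc-GLP-1 and C+Fc-GLP-1. For Fc-GLP-1 it ranged from 0.228% to 11.7% on chow and 6.75% to 19.4% on MCD before PH, and from 0.418% to 2.88% and 2.22% to 6.75% after PH. For the interaction before PH it ranged from 1.6% to 12.2%. Between the times, without the authors' values, it ranged from 5.54% to 14.8% in C and 4.96% to 11.6% in MCD. With Fc-GLP-1 these ranges were 0.252% to 6.1% on chow and 0.466% to 2.86% on MCD. Dim probes, such as those of Mtrr, limit the size of a fold.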
